A study of Mus musculus with 14 samples.

Results

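This section follows 7 mouse genes, S100a8, S100a9, Retnlg, Lrg1, Hp, Ltf and Lcn2, through ovaries of mice given dextran sulfate sodium (DSS, a polymer that injures the lining of the colon) and of control mice. The members were picked by gene symbol from a table of 56748 genes, with the day 7 values of DSS and control ovaries already in view. All 7 symbols were found, each on a single row, and all 7 were among the 18006 genes tested. The values that chose them are therefore given for day 7 as a description without a test, and the day 89 libraries carry the test. The 14 RNA-seq libraries were made from ovary. The mice were female, wild-type and of strain C57BL/6J, and the labels give neither a DSS dose nor an age. They form 4 groups: control day 7 (n = 3, replicates 10, 51 and 53), DSS day 7 (n = 4, replicates 75, 80, 81 and 82), control day 89 (n = 3, replicates R123, R124 and R126) and DSS day 89 (n = 4, replicates R29, R38, R78 and R89). The series text places the first time at the end of DSS modelling and the second after a rest of 89 days. The labels do not say that each library is a separate animal, so p-values here speak of variation between libraries, part of which could be technical.

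S100a8 and S100a9 encode the subunits of calprotectin, a calcium- and metal-binding protein that fills the cytosol of neutrophils and is released as a danger signal through receptors such as TLR4 and RAGE. Neutrophils store lactoferrin (Ltf), lipocalin-2 (Lcn2) and haptoglobin (Hp) in their secondary granules. Hp, Lcn2 and Lrg1 are also acute-phase genes that liver and other tissues switch on through IL-6 and STAT3. Granule proteins are transcribed mainly in bone marrow precursors, whereas circulating neutrophils keep abundant calprotectin mRNA. In bulk tissue such as this, more cells of a type and more RNA per cell cannot be told apart.

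The reads behind each value could be recovered from the table, and each library held between 15256018 and 18505144 of them. At day 7, 3 libraries had a high share of mitochondrial transcripts (9.96% in control 10, 12.2% in control 53 and 14.2% in DSS 75), while the other 11 libraries had 0.479% to 4.04%. Replicate 75 is the library in which calprotectin was highest, so day 7 values are given with and without it. The defining markers of oocytes were present in all 14 libraries, with a summed level of at least 30.3 FPKM. Because the extract protocol speaks of retinas, 16 retina markers were read, and the highest value among them in any library was 7.22 FPKM, for Rom1. Levels are in FPKM (fragments per kilobase of gene, scaled to depth), which allows genes of different length to be set side by side.

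At day 7 both calprotectin genes stood far apart between the groups. S100a8 (ENSMUSG00000056054, chromosome 3, 90668978 to 90670035, plus strand, GRCm38) had 0.288, 0.468 and 0.103 FPKM in control replicates 10, 51 and 53. In DSS replicates 75, 80, 81 and 82 it had 41.4, 6.91, 5.79 and 4.24 FPKM. Every DSS library lay above every control, and replicate 75 lay far above the other three DSS libraries. The control values rest on 3, 6 and 1 reads and the DSS values on 387, 87, 76 and 56 reads. The DSS mean (14.6 ± 17.9 FPKM, SD, n = 4) was 50.9 times the control mean (0.286 ± 0.182 FPKM, n = 3), and 19.7 times it without replicate 75.

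S100a9, the partner subunit (ENSMUSG00000056071, chromosome 3, 90692632 to 90695721, minus strand), lies 22596 bases from S100a8 on the same chromosome. In controls it was listed at 0 in replicates 10 and 51 and at 0.962 FPKM, or 7 reads, in replicate 53. The DSS libraries held 63.9, 7.81, 8.40 and 6.54 FPKM, from 449, 74, 83 and 65 reads. The groups did not overlap here either, and replicate 75 was again apart from the other DSS libraries. The means were 21.7 ± 28.1 and 0.321 ± 0.555 FPKM, a ratio of 67.5, or 23.7 without replicate 75. Ranked by group mean among the 18006 tested genes, S100a9 stood at place 16882 in control and 2675 in DSS ovaries, and S100a8 at 17013 and 3889.

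Both subunits kept nearly the same proportion to each other in each DSS day 7 library, whatever their level. S100a8 gave 46.3% of the reads of the pair in replicate 75 (95% Wilson interval 42.9 to 49.7). In replicate 80 it gave 54.0% (46.3 to 61.6), in replicate 81 47.8% (40.2 to 55.5) and in replicate 82 46.3% (37.6 to 55.1). All 4 intervals overlap, although the summed FPKM of the pair ran from 10.8 in replicate 82 to 105 in replicate 75. Per length, S100a8 stood at 0.648 to 0.884 times S100a9. The intervals, here and below, cover counting error only.

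Retnlg, a resistin-like gene known from neutrophils (ENSMUSG00000022651, chromosome 16, 48872621 to 48874496, plus strand), had no reads in any of the 3 controls. The DSS libraries held 22.4, 3.16, 2.14 and 0.443 FPKM, from 179, 34, 24 and 5 reads. All 4 DSS libraries thus lay above the controls, but replicate 82 did so on few reads. A control library with no read allows up to 3 reads, and over the 9 libraries of any group without a Retnlg read this floor lay between 0.274 and 0.363 FPKM. Against a floor of 3 reads over the whole control group, Retnlg was at least 55.0-fold higher in DSS, and at least 17.8-fold higher without replicate 75.

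Retnlg did not follow S100a9 at a fixed proportion. Its share of the reads of both genes was 28.5% in replicate 75 (95% Wilson interval 25.1 to 32.2), 31.5% in replicate 80 (23.5 to 40.7) and 22.4% in replicate 81 (15.6 to 31.2). In replicate 82 the share was 7.14% (3.09 to 15.7), an interval that lies below those of replicates 75 and 80 and meets that of replicate 81 at its edge. Replicate 82 was also the library with the least calprotectin in its group.

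**Figure D1:**
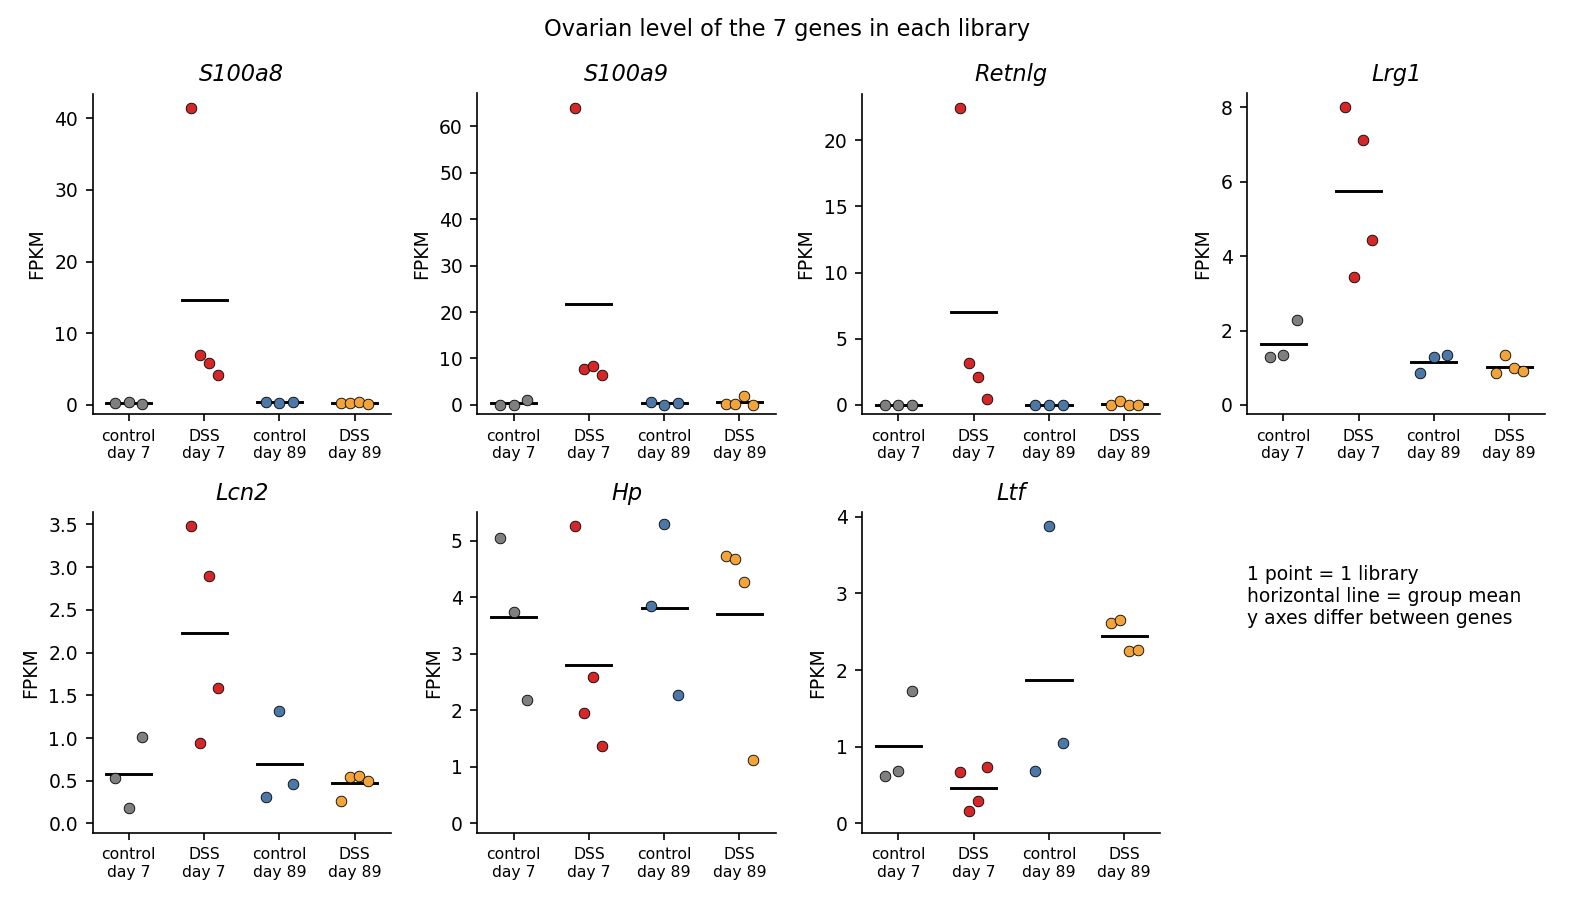
FPKM (y axis, its scale differing between genes) of the 7 genes in each of the 14 libraries, by group on the x axis, with 1 point per library and a horizontal line at the group mean. S100a8, S100a9, Retnlg and Lrg1 have all 4 DSS day 7 libraries above the day 7 controls, with replicate 75 at 41.4 FPKM for S100a8, while Hp and Ltf overlap between those groups.

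Lrg1, leucine-rich alpha-2-glycoprotein, modulates TGF-beta signalling in endothelium (ENSMUSG00000037095, chromosome 17, 56119678 to 56122001, minus strand). It had 1.28, 1.34 and 2.29 FPKM in the day 7 controls and 8.01, 3.45, 7.13 and 4.44 FPKM in DSS. The groups did not overlap, and replicate 75 was here only slightly above replicate 81. The means were 5.76 ± 2.16 and 1.64 ± 0.568 FPKM, a ratio of 3.51, and 3.06 without replicate 75. Lrg1 had at least 19 reads in every library, so unlike calprotectin it was measurable in controls too.

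Lcn2, which binds iron-carrying siderophores (ENSMUSG00000026822, chromosome 2, 32384633 to 32388252, minus strand), had 0.533, 0.186 and 1.01 FPKM in the day 7 controls. The DSS libraries held 3.48, 0.946, 2.90 and 1.58 FPKM. Here 3 of 4 DSS libraries lay above all controls, and replicate 80 lay just under control replicate 53. The means were 2.23 ± 1.17 and 0.577 ± 0.415 FPKM, a ratio of 3.86, or 3.14 without replicate 75. Lrg1 and Lcn2 did not scale with calprotectin from library to library: Lrg1 stood at 0.126 times the FPKM of S100a9 in replicate 75 and at 0.441 to 0.849 times in the other three. The same ratio for Lcn2 was 0.0545 in replicate 75 and 0.121 to 0.345 in the other three.

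Hp and Ltf, both secondary granule genes, showed no separation between the day 7 groups. Hp, which clears free haemoglobin (ENSMUSG00000031722, chromosome 8, 109575128 to 109579172, minus strand), had 5.06, 3.74 and 2.19 FPKM in controls and 5.27, 1.96, 2.60 and 1.37 FPKM in DSS. Replicate 75 was the highest of all 7 and replicates 80 and 82 lay below the lowest control, so that the mean without it was 1.98 ± 0.613 FPKM against 2.80 ± 1.72 with it. The iron-binding gene Ltf (ENSMUSG00000032496, chromosome 9, 111019271 to 111042767, plus strand) had 0.617, 0.690 and 1.73 FPKM in controls and 0.667, 0.160, 0.291 and 0.731 FPKM in DSS. Its DSS mean of 0.462 ± 0.280 lay under the control mean of 1.01 ± 0.620, with overlapping libraries. The controls thus held more Hp and Ltf than S100a8 on the FPKM scale, with Hp at 3.66 ± 1.44.

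On the log2(FPKM + 1) scale the day 7 differences, DSS minus control, were 3.50 (SE 0.63) for S100a9, 3.03 (SE 0.51) for S100a8 and 2.20 (SE 0.62) for Retnlg. They were 1.32 (SE 0.23) for Lrg1 and 0.99 (SE 0.28) for Lcn2, and −0.35 (SE 0.39) for Hp and −0.44 (SE 0.31) for Ltf. Without replicate 75 they were 2.77 for S100a9, 2.36 for S100a8, 1.41 for Retnlg, 1.16 for Lrg1, 0.81 for Lcn2, −0.62 for Hp and −0.51 for Ltf. This scale compresses differences between low values: with 0.1 added in place of 1, S100a9 stood at 5.89, S100a8 at 4.71, Retnlg at 4.94 and Lcn2 at 1.83, so the order of S100a8 and Retnlg depends on it. In all, 4 of the 7 members had every DSS library above every control and 0 had every DSS library below. Over the 18006 tested genes 6.24% separated upward and 5.87% downward. Since this contrast chose the members, nothing is read from their count. No library outside DSS day 7 had 0.5 FPKM or more of S100a8 or Retnlg, so both entered the set of tested genes through the group in which they were high.

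Among the 3 libraries rich in mitochondrial transcripts, the 1 DSS library minus both controls gave 5.15 for S100a8 and 5.53 for S100a9 on the log2 scale. Within the remaining libraries, 3 DSS and 1 control, the values were 2.16 and 3.10. For Lcn2 they were 1.35 and 1.18, and for Hp 0.51 and −0.69, so that Hp changed sign between the strata. Each stratum has a single library on one side and gives no test.

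Promoter sequence is shown for S100a8, S100a9 and Retnlg, whose day 7 groups did not overlap, and for Ltf, whose groups did, taken from RefSeq (GRCm38.p6), as the bases before the annotated transcript start that lie outside every GENCODE M21 exon. RefSeq promoter windows, from 250 bases before to 50 after the start, were at hand for 6 of the 7 members, all but Hp. Both strands of each window were searched for 4 motifs: the TATA box (TATAAA), the C/EBP site as TTGCNNAA, the STAT site as TTCNNNGAA and the PU.1 and ETS core GAGGAA. C/EBP and PU.1 factors drive myeloid genes and STAT3 drives acute-phase genes. Capitals mark C/EBP or PU.1 matches, written as they read on the gene's own strand.
S100a8, chr3:90668821-90668977, plus strand: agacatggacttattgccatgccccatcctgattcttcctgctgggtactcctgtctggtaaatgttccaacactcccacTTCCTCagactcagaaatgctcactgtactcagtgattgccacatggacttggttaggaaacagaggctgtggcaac
S100a9, chr3:90695722-90695971, minus strand: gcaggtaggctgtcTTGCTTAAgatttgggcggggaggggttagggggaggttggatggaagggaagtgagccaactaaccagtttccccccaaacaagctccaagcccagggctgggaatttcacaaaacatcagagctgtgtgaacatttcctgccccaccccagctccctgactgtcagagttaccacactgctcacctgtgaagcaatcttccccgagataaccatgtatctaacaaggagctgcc
Retnlg, chr16:48872358-48872607, plus strand: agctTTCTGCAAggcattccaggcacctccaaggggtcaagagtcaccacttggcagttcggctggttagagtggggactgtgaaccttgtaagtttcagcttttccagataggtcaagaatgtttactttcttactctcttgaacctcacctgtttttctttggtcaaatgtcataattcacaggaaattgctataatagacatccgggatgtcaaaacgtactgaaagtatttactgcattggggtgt
Ltf, chr9:111019042-111019270, plus strand: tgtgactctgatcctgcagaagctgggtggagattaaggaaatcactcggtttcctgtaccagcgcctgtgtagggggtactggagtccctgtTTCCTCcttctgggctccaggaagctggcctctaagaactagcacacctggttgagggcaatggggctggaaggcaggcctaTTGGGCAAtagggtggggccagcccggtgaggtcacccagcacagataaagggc
The C/EBP letters were in the windows of S100a9 (position −236 from the start), Retnlg (−246), Ltf (−75) and Lcn2 (−216), and 10.8% of all 32851 RefSeq windows hold them. GAGGAA or its reverse complement was in the windows of S100a8 (−170 and −36), Ltf (−157) and Lcn2 (−20), against 28.3% of all windows. TATAAA was in those of S100a8 (−30), S100a9 (1) and Lrg1 (12), against 13.6%, and the STAT letters were in none of the 6, against 8.30%. Ltf and Lcn2, whose day 7 libraries overlapped, each hold both a C/EBP and a PU.1 match. Of the C/EBP and PU.1 motifs, S100a8 holds only PU.1, S100a9 and Retnlg hold only C/EBP, and Lrg1 holds neither. Whether the letters bear on the levels was not tested. A match is a stretch of letters and not a bound site.

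By day 89 the calprotectin genes were at the level of a few reads in both groups. S100a8 had 0.394, 0.325 and 0.352 FPKM in control replicates R123, R124 and R126 and 0.274, 0.248, 0.441 and 0.163 FPKM in DSS replicates R29, R38, R78 and R89. Each of these 7 libraries held 2 to 5 reads, and the groups overlapped. S100a9 had 0.733, 0 and 0.468 FPKM in controls and 0.121, 0.110, 1.99 and 0 FPKM in DSS. Replicate R78 stood apart with 17 reads of S100a9 and 5 of S100a8, and S100a8 gave 22.7% of its pair (95% Wilson interval 10.1 to 43.4). That interval overlaps the day 7 intervals of replicates 75, 81 and 82 but not that of replicate 80. Retnlg was listed at 0 in all 3 controls and in 3 of 4 DSS libraries, with 0.291 FPKM, or 3 reads, in R38.

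The acute-phase members were measurable at day 89 and overlapped between the groups. Lrg1 had 0.854, 1.28 and 1.34 FPKM in controls and 0.856, 1.35, 1.00 and 0.924 FPKM in DSS. Lcn2 had 0.313, 1.31 and 0.465 FPKM in controls and 0.266, 0.548, 0.560 and 0.496 FPKM in DSS. Control replicate R124 alone carried the high Lcn2 value, and it was also the highest library for Ltf. Hp had 3.85, 5.30 and 2.28 FPKM in controls and 4.74, 4.69, 4.27 and 1.13 FPKM in DSS, where R89 was low. Ltf had 0.681, 3.88 and 1.04 FPKM in controls and 2.61, 2.65, 2.25 and 2.26 FPKM in DSS. The Ltf values of DSS libraries lay close together, at 2.44 ± 0.215 (SD, n = 4), above 2 of the 3 controls and below R124.

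In the test across all genes, no member passed the threshold between DSS and control at day 89. The difference in log2(FPKM + 1) was −0.09 for S100a8 (95% confidence interval −1.17 to 1.00, limma adjusted p = 0.995), with 1 of 4 DSS libraries above all controls. For S100a9 it was 0.03 (−1.33 to 1.38, limma adjusted p = 0.999) and for Retnlg 0.09 (−1.23 to 1.42, limma adjusted p = 0.998). The model behind these intervals takes 1 estimate of the spread from all 14 libraries, replicate 75 included. With the day 89 libraries alone the standard errors were 0.089 for S100a8, 0.405 for S100a9 and 0.093 for Retnlg, with differences of the same size.

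Lrg1 differed by −0.09 (95% confidence interval −0.58 to 0.41, limma adjusted p = 0.979) and Lcn2 by −0.17 (−0.78 to 0.44, limma adjusted p = 0.963). Hp differed by −0.09 (−0.93 to 0.76, limma adjusted p = 0.993). Ltf had the largest difference, 0.43 (−0.23 to 1.08, limma adjusted p = 0.924, unadjusted 0.185). That value rests on single controls: it was 0.89 (SE 0.23, limma adjusted p = 1) without R124, where the Ltf libraries no longer overlapped, 0.12 without R123 and 0.26 without R126. No member had an unadjusted p under 0.05, and voom on the recovered reads called 0 members too. Over the whole table limma called 1 of 18006 genes at day 89, which is 0.00555%, with 824 genes at an unadjusted p under 0.05. Of the 7 members, 0 had libraries that did not overlap, against 4.04% of all tested genes upward and 4.25% downward. With the spread taken from all 14 libraries, replicate 75 included, the intervals leave room for differences of the size of 1 log2 unit in S100a8, S100a9 and Retnlg. Their lower ends cannot be reached, since the control means in log2(FPKM + 1) were 0.44, 0.45 and 0. The groups are not shown to be alike.

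**Figure D2:**
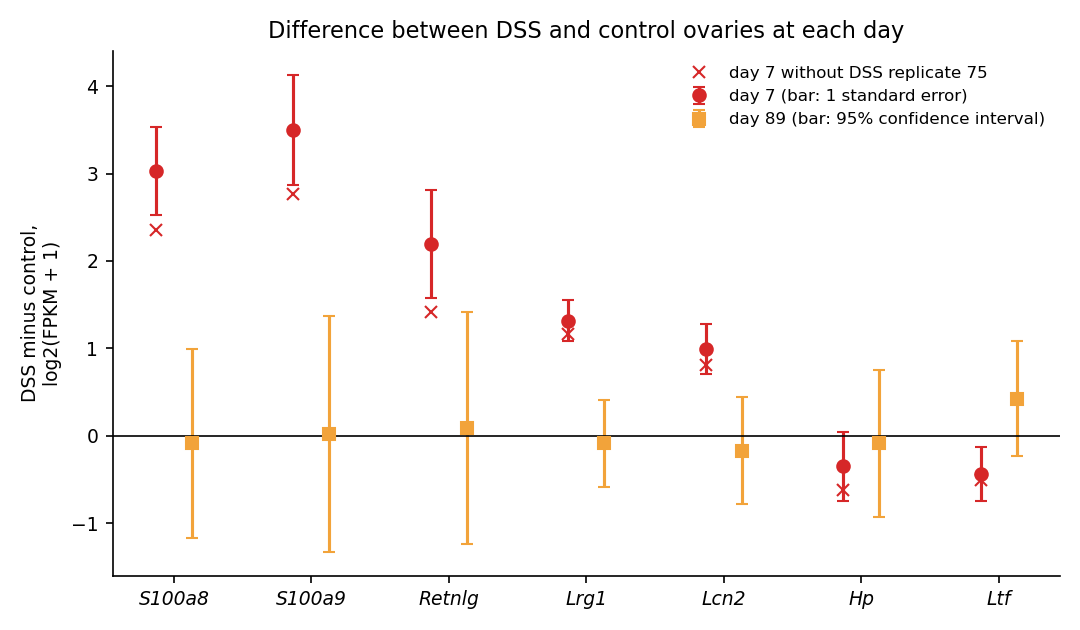
Difference DSS minus control in log2(FPKM + 1) (y axis) for the 7 genes (x axis), at day 7 with 1 standard error (circles), at day 7 without replicate 75 (crosses), and at day 89 with 95% confidence intervals (squares). The day 7 values of S100a8, S100a9 and Retnlg stand at 3.03, 3.50 and 2.20, and all 7 day 89 intervals include 0.

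Between the times, DSS libraries did not overlap for 6 of the 7 members, and control libraries overlapped for all 7. All 4 DSS day 89 libraries lay below all 4 DSS day 7 libraries for S100a8 (a difference of −3.03 in log2), S100a9 (−3.35), Retnlg (−2.10), Lrg1 (−1.68) and Lcn2 (−1.07). Ltf went the other way, with all 4 day 89 libraries above all 4 day 7 libraries and a difference of 1.25, and Hp overlapped (0.30). Over the tested genes 12.7% separated downward and 12.2% upward between the DSS times, and 22.2% downward and 22.8% upward between the control times, and nothing is read from the members' count since the day 7 DSS libraries chose them. By limma 21.4% of genes differed between the times in DSS and 31.8% in controls. In controls the day 89 minus day 7 difference ran from −0.28 for Lrg1 to 0.39 for Ltf, and was 0.09 for S100a8 and 0.12 for S100a9. The levels in control day 7, control day 89 and DSS day 89 ovaries did not differ beyond the spread of the libraries for S100a8, whose means were 0.286 ± 0.182, 0.357 ± 0.0346 and 0.282 ± 0.116 FPKM. The controls cover the same interval without DSS, and the difference between both changes over time was not tested for the members.

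Red cell and most macrophage transcripts also stood higher in DSS ovaries at day 7, although limma called 0 of 5 tested red cell and 0 of 11 macrophage markers. The summed FPKM of the 4 globin genes ran from 406 to 720 in DSS and from 49.3 to 309 in control ovaries at day 7. Calprotectin and globin did not go together in every library. DSS replicate R89 at day 89 had 650 FPKM of globin with 2 reads of S100a8 and 0 of S100a9, and control replicate 51 had 309 FPKM of globin with 6 and 0 reads. Macrophage markers summed to between 285 and 371 FPKM in DSS and between 132 and 189 in control ovaries at day 7, and 8 of 11 markers had a log2 difference above 0. Every DSS library exceeded every control for 6 of the 11, among them C1qa, C1qb and C1qc, the 3 most abundant, against 6.24% of all tested genes. The monocyte and macrophage genes Cx3cr1 (−0.18), Ccr2 (−0.12) and Ly6c2 (−0.03) lay on the other side of 0.

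Markers of ovarian cells differed in level between the day 7 groups too, again with 0 called by limma in each list. Luteal markers summed to between 316 and 1225 FPKM in DSS and between 1119 and 1259 in control ovaries, with a median log2 difference of −1.16 and 1 of 7 above 0. Oocyte markers summed to between 256 and 413 FPKM in DSS and between 113 and 224 in controls, with a median of 0.76 and 8 of 8 above 0. Surface epithelium and oviduct markers summed to between 65.1 and 115 FPKM in DSS and between 116 and 146 in controls, with a median of −0.63 and 1 of 8 above 0. The part of blood content, macrophages or the ovarian cell make-up in the day 7 values of the members was not tested.

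**Figure D3:**
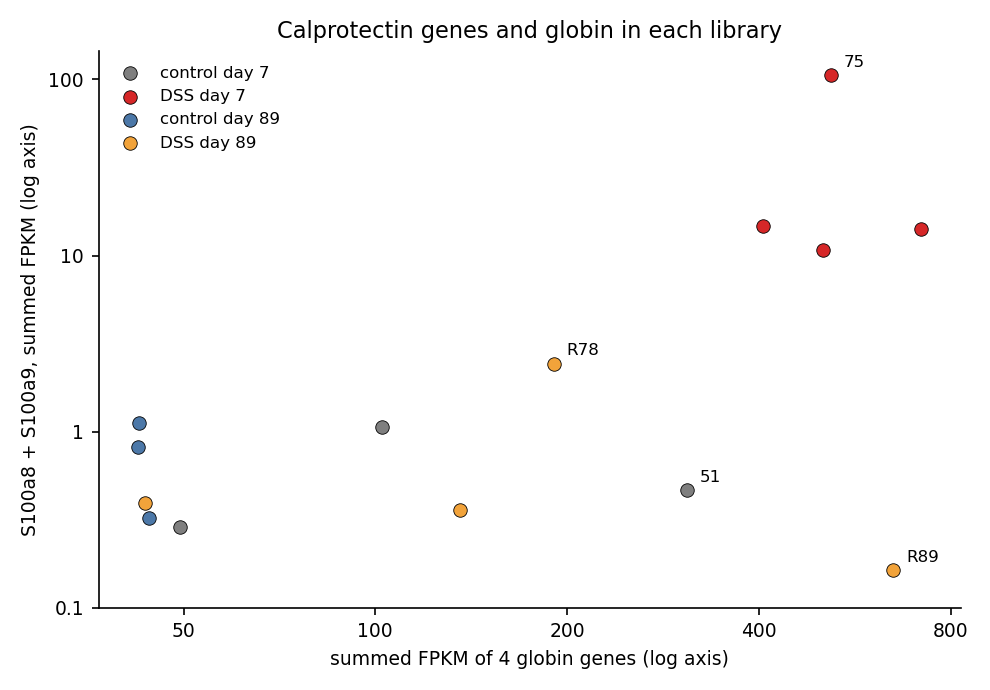
Summed FPKM of S100a8 and S100a9 (y axis, log) against summed FPKM of 4 globin genes (x axis, log), 1 point per library, coloured by group. The 4 DSS day 7 libraries sit at the top, from 10.8 to 105 FPKM, and replicate R89 sits far right at the bottom, with 650 FPKM of globin.

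Other neutrophil genes were described from lists that do not hold the members. Of 20 surface and lineage genes 11 were tested, 0 passed the limma threshold at day 7 (background 0.0333% of all tested genes, 6 of 18006), and their median log2 difference was 0.41 with 9 above 0, against a median of 0.00 over all genes. Il1r2, among those above 0, entered the set of tested genes only through the DSS day 7 libraries. That median and that count were therefore partly fixed in advance. Fpr1, a receptor for bacterial formyl peptides, had 0.05, 0.20 and 0.38 FPKM in controls and 1.35, 0.58, 0.80 and 0.79 in DSS (limma adjusted p = 0.133). Itgb2, the beta chain of leukocyte integrins, averaged 3.81 ± 0.593 FPKM in DSS and 1.69 ± 0.527 in controls (limma adjusted p = 0.323). Csf3r, the G-CSF receptor, averaged 1.44 ± 0.362 FPKM in DSS and 0.537 ± 0.248 in controls (limma adjusted p = 0.369). Cxcr2, the receptor by which neutrophils follow chemokines, had 0 reads in controls and 49 reads over the DSS group, too few to be tested. Ly6g, the usual surface marker of mouse neutrophils, had 0.42 FPKM in control replicate 10, 0.32 in DSS replicate 75 and 0 elsewhere.

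Of 20 granule genes 19 were in the table and 9 were tested. Again 0 passed the threshold, with a median of 0.37 and 8 above 0. Stfa2l1 and Chil3 entered the set of tested genes through the DSS day 7 libraries, in which they were high. That median and that count were therefore partly fixed in advance. Stfa2l1, a stefin with close copies in the genome, had 4.96, 0.39, 0.76 and 0.50 FPKM in the DSS day 7 libraries and was listed at 0 in the other 10 libraries. Wfdc21, a small secreted protein gene, had 4.45, 0.51, 0.49 and 0.24 FPKM in the same libraries and was also listed at 0 in the other 10. For both genes replicate 75 was the highest, as for calprotectin. Chil3, a chitinase-like protein of myeloid cells, averaged 1.70 ± 1.16 FPKM in DSS and 0.144 ± 0.0284 in controls (limma adjusted p = 0.0975). Cybb, a subunit of the phagocyte oxidase, averaged 2.21 ± 0.425 against 1.15 ± 0.414 FPKM (limma adjusted p = 0.295). Chil3 was highest in replicates 82 (2.93) and 75 (2.46), an order unlike that of S100a9. Among the azurophil granule genes of bone marrow precursors, Elane reached 0.06 FPKM at most and Mpo 0.10. Ctsg was listed at 0 in all 14 libraries. Prtn3, a further azurophil granule gene, had reads in all 14, from 0.110 FPKM in DSS day 89 replicate R29 to 1.28 in DSS day 7 replicate 81. Its day 7 groups overlapped, with a control mean of 0.665 FPKM (56 reads) and a DSS mean of 0.910 (110 reads, limma adjusted p = 0.686).

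**Figure D4:**
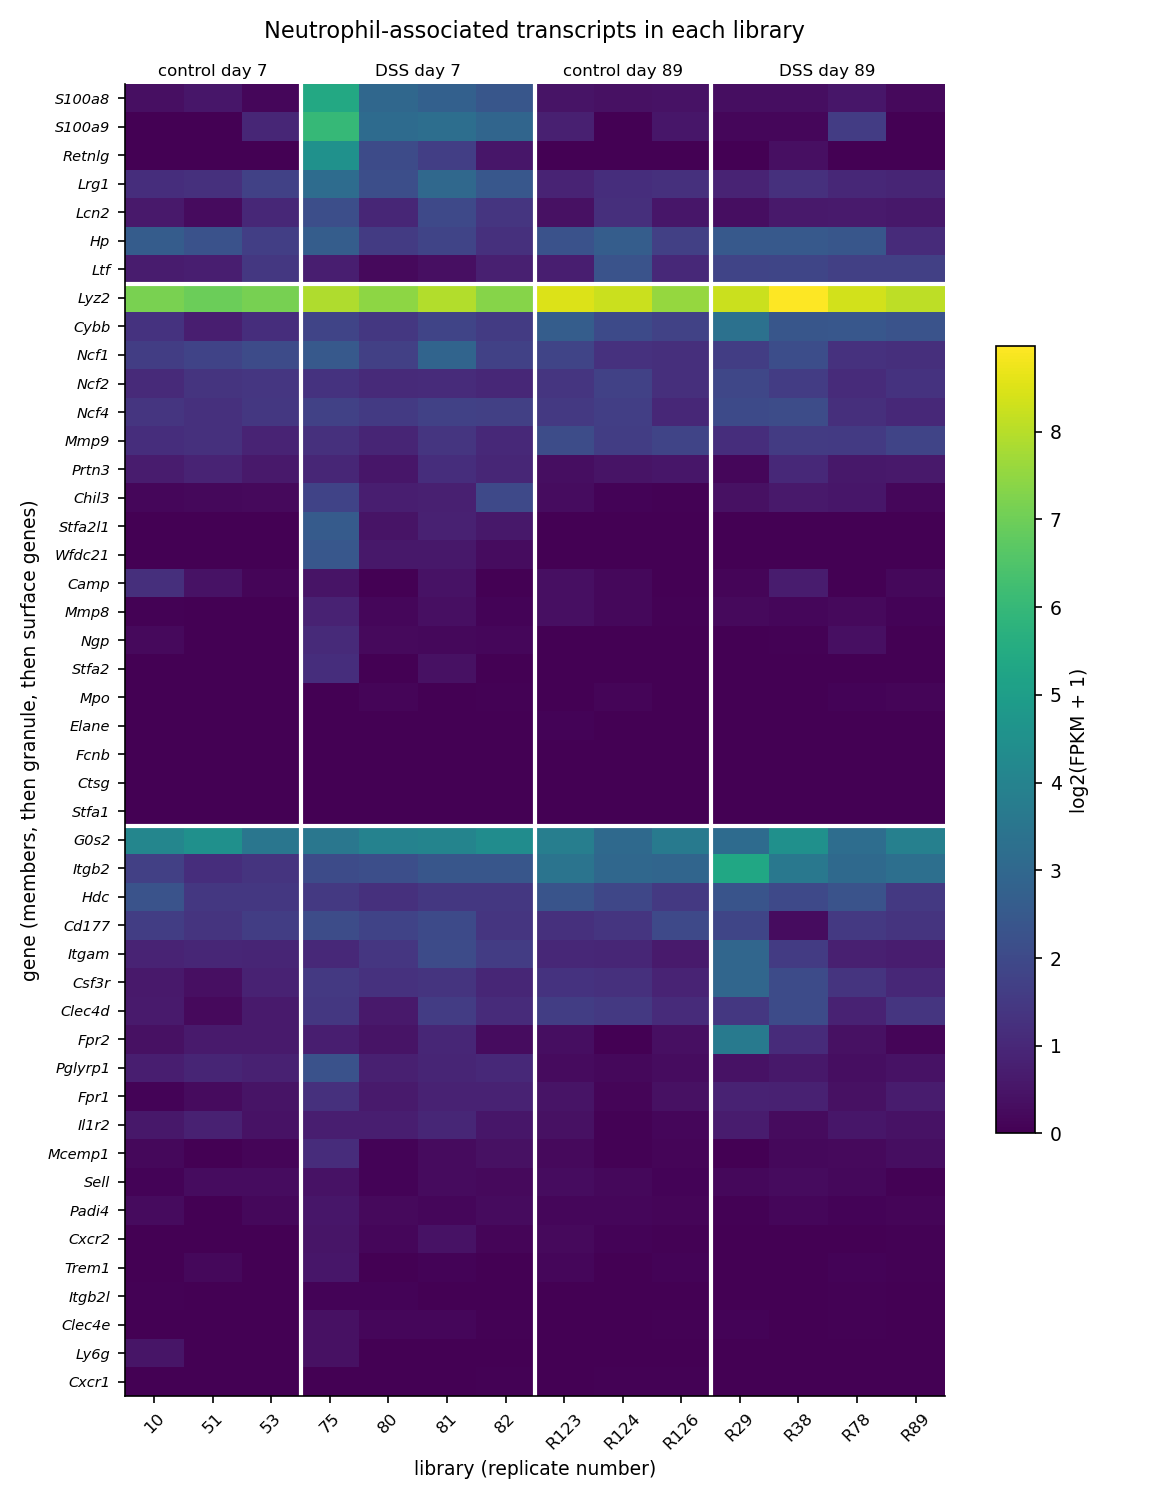
log2(FPKM + 1) (colour) of the 7 members, 19 granule genes and 20 surface genes (y axis, blocks parted by white lines) in each of the 14 libraries (x axis, by group). S100a8, S100a9, Retnlg, Stfa2l1 and Wfdc21 are brightest in DSS day 7 replicate 75, while Itgb2 and Fpr2 are bright in DSS day 89 replicate R29, at 40.0 and 11.6 FPKM, where calprotectin is dark.

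The acute-phase and cytokine lists lay near the median of all genes. Of 20 acute-phase plasma protein genes 8 were tested, 0 passed the threshold at day 7 and 4 were above 0, with a median of 0.18. Serpina3g, a protease inhibitor, had 17.4, 19.4 and 25.3 FPKM in controls and 57.4, 28.2, 27.7 and 44.3 in DSS (limma adjusted p = 0.172). Saa2, a serum amyloid A gene, stood lower on average in DSS, with 14.8, 2.69, 0.357 and 0.063 FPKM against 0.740, 16.5 and 14.3 in controls (limma adjusted p = 0.491). The liver gene Alb reached 0.92 FPKM at most in any library. The 6 liver markers read, Alb among them, summed to between 27.4 and 52.4 FPKM in DSS and between 10.3 and 46.9 in controls at day 7. Of these, 3 were tested and limma called 0, with a median log2 difference of 0.71. The IL-6 and STAT3 list had 17 of 23 genes tested, 0 called and a median of 0.06. In that list Osmr, the oncostatin M receptor, averaged 2.34 ± 0.613 FPKM in DSS and 1.13 ± 0.501 in controls (limma adjusted p = 0.147). Il11ra1, an IL-11 receptor, averaged 29.4 ± 9.63 against 49.2 ± 11.3 (limma adjusted p = 0.192), and Cebpb, a C/EBP factor, 85.8 ± 11.9 against 128 ± 47.3 (limma adjusted p = 0.322).

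Among 15 neutrophil attractants and growth factors 8 were tested, 0 passed and 7 were above 0, with a median of 0.30. Cxcl1, a ligand of Cxcr2, had 0.177, 0.317 and 0.689 FPKM in controls and 0.752, 3.15, 2.25 and 2.33 in DSS (limma adjusted p = 0.123). The monocyte attractant Ccl2 had 0.819, 1.14 and 0.567 FPKM in controls and 0.848, 3.20, 7.06 and 6.14 in DSS (limma adjusted p = 0.169). In both genes replicate 75, the library highest in calprotectin, was the lowest of the DSS libraries. Without replicate 75 the table had 1220 of 17745 genes past the threshold (6.88%). Ccl2, Cxcl1, Chil3, Cd36 and Il11ra1 were then past it among the listed genes: Ccl2 was higher by 1.77 (SE 0.31, limma adjusted p = 0.0111) and Cxcl1 by 1.37 (SE 0.25, limma adjusted p = 0.0127), and Il11ra1 was lower, at −0.95 (SE 0.23, limma adjusted p = 0.0316). By list, 2 of 8 attractants, 1 of 8 granule, 1 of 15 receptor or partner and 1 of 17 IL-6 and STAT3 genes passed, and 0 in every other list. Beside the share over all genes, nothing is read from these counts.

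Of 17 receptors or partners of the members 15 were tested, 0 passed and 11 were above 0, with a median of 0.17. Cd36, a scavenger receptor that can bind calprotectin, averaged 7.01 ± 3.44 FPKM in DSS and 2.77 ± 0.870 in controls (limma adjusted p = 0.170). Without replicate 75, where 6.88% of all tested genes passed, Cd36 was higher by 1.31 (SE 0.24, limma adjusted p = 0.0127). Tgfbr2, the TGF-beta receptor whose pathway Lrg1 modulates, averaged 9.39 ± 0.893 against 6.62 ± 1.06 FPKM (limma adjusted p = 0.190). Ager, which encodes RAGE, had 3.95, 3.51 and 8.48 FPKM in controls and 14.9, 2.50, 3.63 and 2.23 in DSS, with replicate 75 highest again. The iron-handling list had 11 of 12 genes tested, 0 called and a median of 0.28. Hmox1, the haem-degrading enzyme, averaged 39.6 ± 10.1 FPKM in DSS and 29.6 ± 2.74 in controls (limma adjusted p = 0.470). Of the other S100 genes 11 of 15 were tested, 0 passed and 6 were above 0, with a median of 0.05. S100a14, among those above 0, would not have been tested without the DSS day 7 libraries. S100a11 at 296 ± 75.7 FPKM and S100a10 at 118 ± 39.9 FPKM in DSS were far more abundant in the ovary than S100a8. Retnla, the resistin-family gene of macrophages, was listed at 0 in replicate 75 and had 2.39, 3.09 and 2.37 FPKM in the other DSS libraries (limma adjusted p = 0.492).

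At day 89 limma called 0 genes in every one of these lists. The surface list had a median of 0.28 with 10 of 11 above 0, the granule list 0.14, the attractants 0.15, and the acute-phase list −0.19 with 1 of 8 above 0, against 0.00 over all genes. These medians were not computed without single libraries. Several genes above 0 were highest in DSS replicate R38, such as Lyz2 (501 FPKM) and G0s2 (21.9). In DSS replicate R29 others stood far apart: Itgb2 was at 40.0 FPKM there and at 7.44 to 10.9 in the other DSS libraries of that day. In the same library Fpr2 was at 11.6, Csf3r at 6.78 and Ccl4 at 18.1 FPKM, while S100a8 and S100a9 had 3 and 1 reads. High values of leukocyte receptor genes and near-absent calprotectin reads thus stood side by side in 1 library. Several macrophage markers were also at their highest of any library in R29, among them C1qb (204 FPKM), C1qc (103) and Csf1r (17.1). Cd68 (56.0), Mrc1 (4.08) and Ccr2 (1.65) were higher in another library. Which cells these transcripts came from was not tested. The lowest adjusted p of a gene named from these lists at day 89 was 0.924. One of them was Cxcl12, a chemokine that retains neutrophils in bone marrow, which averaged 10.7 ± 1.48 FPKM in DSS and 34.0 ± 17.4 in controls, with all 4 DSS libraries below all controls (log2 difference −1.42, limma adjusted p = 0.924). Jak2, a kinase upstream of STAT3, averaged 10.2 ± 1.98 against 12.8 ± 0.918 FPKM, again without overlap (−0.32, limma adjusted p = 0.924). Steap4, a metalloreductase, averaged 6.85 ± 1.27 against 9.11 ± 1.02 FPKM without overlap (−0.38, limma adjusted p = 0.924).

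Likeness was read among named protein-coding genes, with predicted genes left out. Those whose levels were most like S100a9 over the 14 libraries were S100a8 (Pearson r = 0.967 in log2(FPKM + 1)), Retnlg (0.917), Stfa2l1 (0.917) and Lrg1 (0.900). Without replicate 75 these became 0.926, 0.820, 0.905 and 0.860, so that Retnlg fell below Stfa2l1 and Lrg1. Counted among all tested genes, predicted and non-coding ones included, S100a8 then stood at place 4, Stfa2l1 at 6, Lrg1 at 30 and Retnlg at 81. These places cannot be set against the order over the 14 libraries, which leaves such genes out. The order of Retnlg, Stfa2l1 and Lrg1 therefore rests in part on that library. Uchl4, Mov10l1, Cyp4f39, Hivep3, Wdr31 and Bmp7 followed over the 14 libraries, from 0.893 down to 0.854. Without replicate 75 they stood at places 16 (Cyp4f39) to 292 (Wdr31) among all tested genes. Lcn2 was most like Lrg1 (0.917), then Galnt6 (0.895), Cnot11 (0.836), S100a9 (0.832) and Uchl1 (0.828). Lrg1 was in turn most like Nrg4 (0.930), Slc10a6 (0.917), Lcn2 (0.917), Arl14epl (0.905) and S100a8 (0.901). Hp and Ltf had other neighbours, without a member among them: Avpi1 (0.851), Cabp1, Tspan5, Slc22a15 and Cited4 for Hp, and Zfc3h1 (0.864), Nrd1, Cpa3, Greb1 and Letm1 for Ltf. Between members, r was −0.57 for Ltf with S100a8 and −0.03 for Hp with S100a8. The points share the 4 group means, and the mitochondrial share differs between libraries, so these r are a description of 14 libraries with no test.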

How the data were processed

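Ovarian RNA was sequenced in 14 libraries in 4 groups taken from the labels. The authors deposited FPKM per library, with gene lengths. TruSeq libraries were made from total RNA (per the labels' protocols). HISAT2 2.0.5 and GRCm38 are named in the submitters' processing notes. The counter, annotation and strand setting are not given in the sources consulted, so near-identical copies, such as the stefin genes Stfa2 and Stfa2l1, are uncertain in how their reads were split.

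FPKM times deposited length fell on whole steps, with 100% of values below 300 steps lying within 0.01 of one, which gave reads per gene. The authors' scaling implies totals 0.852 to 1.07 times the recovered ones. No libraries agreed within sampling noise.

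limma 3.58.1 (R 4.3.3, Python 3.11.15) fitted log2(FPKM + 1) with 1 mean per group to all 14 libraries and a mean-dependent prior variance, for genes with at least 3 libraries at 0.5 FPKM. P-values were Benjamini-Hochberg adjusted over all 18006 genes, with a threshold of 0.05. The fit was tested on simulated data, with changes planted only in genes of many reads and judged only on the larger of these changes. It therefore gives no measure of power for smaller changes, or for genes at a few reads such as calprotectin and Retnlg in most libraries. Alternatives changed the pseudocount (0.1), filter, scaling, libraries and test (voom, a count-based weighting in limma).

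Deposited gene positions differ from GENCODE M21 on GRCm38, so positions come from M21 by gene ID. Deposited lengths equal M21 exon lengths for all 7 members.

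The members and lists were chosen with earlier results of these data known. From each list, the 3 genes of smallest p in each DSS comparison, with a group mean of at least 1 FPKM, were eligible to be named. Likeness was read for the 10 genes closest to S100a9 and the 5 closest to Lcn2, Lrg1, Hp and Ltf. Predicted, unnamed and non-coding genes were left out of it. Fpr1, Cxcr2, Ly6g, Wfdc21, Elane, Mpo, Ctsg, Prtn3, Ager, Alb, Itgb2 in R29 and the genes past the threshold without replicate 75 were named after their values were seen. The same holds for Il1r2, S100a14, Lyz2 and G0s2 in R38 and the macrophage markers in R29.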

Additional observations from a re-analysis of the deposited data

Results flagged for a closer look

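In groups of 4 libraries, a library was singled out when its gap to the nearest other library was larger than Dixon's critical share of the group's range. In normally distributed values this happens in about 1 in 20 groups. FPKM values are skewed and hold zeros, so that share cannot be set against the count here. Of 14 groups tested (7 genes in DSS day 7 and DSS day 89), 6 held such a library. DSS day 7 replicate 75 stood above the other three with 41.4 FPKM for S100a8, 63.9 FPKM for S100a9 and 22.4 FPKM for Retnlg. These 3 are not independent, since they come from 1 library and from genes whose levels go together. The day 7 values were also in view when the members were chosen. At DSS day 89, replicate R78 was high for S100a9 with 1.99 FPKM and R38 was high for Retnlg with 0.291 FPKM, or 3 reads. The other DSS day 89 libraries were at 0 for Retnlg, so any read in R38 would have singled it out. Replicate R89 was low for Hp with 1.13 FPKM. The groups of 3 controls were too small for this rule.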

How the results depend on the processing

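The member differences at day 89 were recomputed 108 times under the alternatives. In 100 cases the direction held, in 7 it reversed and in 1 the difference was 0 (Retnlg without R38), and none passed the threshold (smallest limma adjusted p = 0.677). Several settings could not move a difference at day 89, since the fit has 1 mean per group. These changed only the filter, used only the libraries compared, or left out or adjusted for the libraries of high mitochondrial share, all of day 7. The count of held directions was therefore partly fixed in advance. S100a9 turned to −0.20 with a pseudocount of 0.1, with voom and without R124, and to −0.34 without R78. Hp turned to 0.13 without R124 and 0.26 without R89, and Lcn2 to 0.076 without R124. Leaving out 1 library at a time gave −0.34 to 0.20 for S100a9, −0.34 to 0.26 for Hp, 0.12 to 0.89 for Ltf and −0.33 to 0.076 for Lcn2. At day 7 none of 107 member differences reversed, and there too the filter and the choice of libraries compared could not move them. The count of members without overlap was 4 to 5 at day 7 and 0 to 1 at day 89, where leaving out R78 or R124 gave 1.

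Counts over all genes changed more. At day 89, 1 gene was called, against 0 with a pseudocount of 0.1, only the libraries compared, voom, no libraries of high mitochondrial share, or only the day 89 libraries without a filter. The count was 5 without a filter, and 0 to 2 leaving out 1 library. At day 7, 6 were called, against 2 with a pseudocount of 0.1 or scaling to recovered reads and 0 with only the libraries compared or voom. It was 865 without the libraries of high mitochondrial share, 20 with a term for them, 191 without libraries 53 and 75 (chosen after seeing the data), and 0 to 1220 leaving out 1 library. The highest came without replicate 75, then 40 without control replicate 10. Without the libraries of high mitochondrial share 1 day 7 control remains, which is assumed to vary like the other groups. The listed genes Saa2, Cd36 and Retnla, picked by their values in that setting, then differed by −3.33, 1.61 and 1.85. Day 89 against day 7 gave 5732 genes in controls, 3196 without the libraries of high mitochondrial share, 3141 with a term for them and 3713 to 6029 leaving out 1 library. In DSS it gave 3860, and 2043 to 4941 leaving out 1 library. The cause was not tested.

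No paired analysis was possible because no replicate number recurs between groups. Calprotectin and Retnlg rested on 0 to 7 reads in most libraries outside DSS day 7, so differences of a few reads were not detectable there.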
